A study of Mus musculus with 28 samples.

Results

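Genes of cell adhesion and epithelial-mesenchymal transition (EMT), 9 in all, were followed in mouse embryonic stem cells (mESCs) after depletion of SSRP1, a subunit of the histone chaperone FACT. They were chosen by name: *Cdh1*, *Epcam*, *Cldn6*, and *Cldn7* as genes of epithelial junctions, *Cdh2* and *Vim* as mesenchymal genes, and *Zeb1*, *Zeb2*, and *Snai1* as EMT transcription factors. All 9 were among the 15384 genes with a value per library and among the 27179 genes of the chromatin RNA table. The cells were E14, an established mESC line grown in serum and leukaemia inhibitory factor on gelatin. RNA-seq with added ERCC spike-in RNA was made from 4 control libraries, transfected with a scramble hairpin vector, and 4 KD libraries, transfected with 2 *Ssrp1* hairpins together. Both groups received puromycin at 2 µg/ml for 24 h, starting 48 h after transfection. Chromatin RNA came from 2 libraries of E14 cells with no treatment named, and ChIP-seq of SSRP1 and of SUPT16, the other FACT subunit, gave 1 pooled peak list each. No cloning step is named between transfection and collection, so each library is taken as a pool of transfected cells and not a clone. The values are from bulk RNA, in which fewer cells of a type and less RNA per cell cannot be told apart.

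Epithelial cells hold together through adherens junctions, built on E-cadherin (*Cdh1*), and through tight junctions, sealed by claudins. In EMT, transcription factors of the Snail and Zeb families bind E-box motifs and repress *Cdh1*, while N-cadherin (*Cdh2*) and the intermediate filament vimentin (*Vim*) become prominent. Mouse ES cells are epithelial in character and depend on E-cadherin for their compact colonies. Vimentin is made by many cultured cells, so *Vim* alone does not mark a mesenchymal cell.

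After KD, *Epcam* and *Cldn7* rose and *Cdh2*, *Zeb2*, and *Cldn6* fell. The other 4 genes missed the fold threshold. *Cdh1* and *Vim* were 1.37-fold and 1.48-fold higher in the KD libraries, and *Zeb1* and *Snai1* were 1.45-fold and 1.93-fold lower. A gene was called when its log2 fold change, KD minus control, lay beyond 1 in either direction with a Benjamini-Hochberg adjusted p below 0.01 in limma. By this rule 5 of 9 members were called, 2 higher and 3 lower. Over all genes tested, 28.6% were called, 8.07% higher and 20.6% lower. In all 9 members the 4 control and 4 KD libraries did not overlap, as was so in 73.3% of all genes. All fold changes are on the scale of log2(library-size normalised read count + 0.5), which understates the change of low genes.

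Before the adhesion genes, the knock-down itself was checked. *Ssrp1* stood at 223 to 261 normalised read counts in the control libraries and at 24.1 to 28.9 in the KD libraries (log2 fold change -3.15 ± 0.069 SE, adjusted p = 1.18e-22). *Supt16* stood at 296 to 346 and at 481 to 529 (0.66 ± 0.058 SE, adjusted p = 5.24e-11). That is a rise of its mRNA only, as the paper reports by mass spectrometry that SUPT16 protein was depleted along with SSRP1. The KD libraries were deeper, at 9433193 to 19856032 reads on the listed genes against 4602278 to 6680919 in the controls. All 10 mESC markers had a value and 7 were called higher, with their summed level per kb of exon at 1462 to 1588 in controls and 4523 to 5158 in KD. The lists for other cell types had smaller sums in KD for fibroblasts and feeders (20.7 to 25.0 against 8.91 to 10.2), trophectoderm (609 to 821 against 470 to 498), primitive endoderm (30.7 to 35.1 against 17.5 to 19.5), and mesoderm (16.9 to 21.2 against 5.56 to 6.84). The neural progenitor sum went the other way (25.3 to 34.4 against 67.1 to 73.4). The summed level of all genes was also higher in KD, so the sums overstate rises. As a share of it, mESC markers took 0.307% to 0.338% in controls and 0.571% to 0.598% in KD. Neural progenitor markers took 0.00488% to 0.00753% in controls and 0.00767% to 0.00895% in KD. The other lists had smaller shares in KD. Of the fibroblast and feeder markers, *Dcn*, *Lum*, *Prrx1*, and *Fap* had no value, and of the mesoderm markers, *T* and *Mixl1* had none. These levels moved together with the adhesion genes, and their part in the results below was not tested.

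Over the whole table, fold changes varied with exon length and with scaling. In the 3846 genes of shortest exon length (42 to 1636 bp) the median log2 fold change was 0.34, with 18.6% called higher and 11.6% called lower. In the 3846 of longest exon length (4141 to 104320 bp) it was -0.33, with 2.08% and 28.4%. *Cldn6*, *Cldn7*, and *Snai1* (1453 to 1589 bp) belong to the first and *Cdh1*, *Cdh2*, *Zeb1*, and *Zeb2* (4413 to 9113 bp) to the last. Scaling by the spike-in RNA instead of library size moved the median of all genes from -0.03 to 0.95. The ratio of the spike-in scaled to the library-size total was 0.598 to 0.895 in the control libraries, 0.921 in KD replicate 1, and 1.504 to 1.852 in the other KD libraries.

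Sequence just before the gene start was available for 6 of the 9 members in the RefSeq table (GRCm38.p6), namely *Epcam*, *Cldn6*, *Cldn7*, *Vim*, *Zeb2*, and *Snai1*. The 250 bases before each start were searched for the E-box CACCTG and its reverse complement CAGGTG, the motif that the Snail and Zeb factors bind. Of all 32851 promoters in the table, which belong to 27025 genes, 17.2% held at least 1. This share is per promoter, and *Cldn7* and *Zeb2* have more than 1, so a count of members does not compare with it. Among the members, no listed start of *Vim* or *Zeb2* held the motif. For *Zeb2*, the windows of the starts at 45113279 and 45113253 lay wholly within an exon, and that at 45110277 overlapped one by 107 bp. Only the window of the start at 45117442 was free of exons. *Epcam*, *Cldn6*, *Snai1*, and the downstream start of *Cldn7* held the motif. These 4 are shown because they carry the motif and belong to 3 genes that were called and to a factor that binds it. The E-boxes are in capitals, and the strand printed is that of the gene. The *Cldn6* window belongs to a start at base 23679365 of chromosome 17, and its last 17 bases are not shown, as they overlap an exon that begins at 23679348.
Epcam, chr17:87635729-87635978, plus strand: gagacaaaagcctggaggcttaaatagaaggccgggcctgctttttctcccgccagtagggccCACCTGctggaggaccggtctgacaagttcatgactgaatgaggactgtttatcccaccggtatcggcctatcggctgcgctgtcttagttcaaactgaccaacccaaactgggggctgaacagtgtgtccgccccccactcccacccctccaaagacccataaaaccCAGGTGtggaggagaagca
Cldn7, chr11:69965171-69965420, plus strand: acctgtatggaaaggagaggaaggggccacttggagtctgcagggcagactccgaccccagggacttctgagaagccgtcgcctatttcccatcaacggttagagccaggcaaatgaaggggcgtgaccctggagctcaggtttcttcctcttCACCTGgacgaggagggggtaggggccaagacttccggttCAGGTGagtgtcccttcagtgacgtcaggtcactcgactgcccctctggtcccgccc
Cldn6, chr17:23679115-23679347, plus strand: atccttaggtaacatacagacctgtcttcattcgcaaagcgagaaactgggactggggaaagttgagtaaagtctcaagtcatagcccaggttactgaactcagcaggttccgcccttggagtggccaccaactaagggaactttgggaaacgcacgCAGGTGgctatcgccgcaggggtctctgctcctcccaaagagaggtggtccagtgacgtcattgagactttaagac
Snai1, chr2:167537945-167538194, plus strand: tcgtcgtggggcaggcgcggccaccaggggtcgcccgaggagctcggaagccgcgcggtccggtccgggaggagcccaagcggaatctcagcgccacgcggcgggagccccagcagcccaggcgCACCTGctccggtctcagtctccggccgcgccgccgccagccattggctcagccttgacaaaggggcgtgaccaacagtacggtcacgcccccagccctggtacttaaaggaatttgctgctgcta

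The *Epcam* window held 2 E-boxes, at positions -187 and -19 from the start, and the *Cldn7* window held 2, at -97 and -57. *Cldn6* had 1 at -93 from its start at 23679365, which is -76 from the exon at 23679348, and *Snai1* had 1 at -126. The guanine and cytosine content of these windows was 53.6% for *Cldn6*, 56.4% for *Epcam*, 60.0% for *Cldn7*, and 70.0% for *Snai1*, against a median of 52.4% over all promoters. The windows without an E-box had 58.4% for *Vim*, 51.2% for the upstream start of *Cldn7*, and 49.6% to 57.6% for the starts of *Zeb2*. The upstream start of *Cldn7*, at base 69964779 of chromosome 11, had no E-box in its window. A match to 6 letters is a description and not evidence that a factor bound there.

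*Cdh1*, encoding E-cadherin, was the second most abundant member per length. Its normalised read counts, given here and below in the order of the replicate numbers, were 248, 197, 206, and 227 in the controls and 301, 303, 292, and 301 in KD. Every KD library lay above every control library, and the KD libraries were the more alike. The means were 219 ± 22.7 and 299 ± 5.15 (SD, n = 4 each), with a log2 fold change of 0.45 ± 0.062 SE (adjusted p = 2.14e-07), short of the threshold of 1. The difference turned with scaling, at 1.48 with spike-ins and -0.12 with quantile normalisation. A correction of the values for exon length gave 0.88.

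*Epcam* encodes a homophilic adhesion molecule of epithelia and mESCs. Its counts were 43.3, 42.7, 39.3, and 39.7 in the controls and 104, 94.5, 95.1, and 86.9 in KD, so that the groups lay far apart. The means, 41.2 ± 2.05 and 95.1 ± 6.91 (SD, n = 4 each), differed by 1.19 ± 0.068 SE on the log2 scale (adjusted p = 8.29e-15), 2.29-fold. It rested on 219 to 318 reads per control library and 840 to 1612 per KD library. *Epcam* was higher under each scaling tried, with 2.21 by spike-ins and 0.92 by quantiles, the last below the threshold.

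The claudin genes moved in opposite directions. *Cldn6*, a claudin of early embryos and ES cells, had 39.1, 30.1, 39.5, and 35.7 normalised read counts in the controls and 18.8, 15.8, 17.9, and 17.2 in KD. No KD library reached the lowest control. Its mean fell from 36.1 ± 4.32 to 17.4 ± 1.26 (SD, n = 4 each), a log2 fold change of -1.02 ± 0.098 SE (adjusted p = 2.78e-10). That is just past the threshold, and 3 of the 8 fits that left out a library put it just inside. By spike-in scaling the values overlapped, at 18.02 to 31.9 in controls and 17.3 to 29.3 in KD, and the log2 fold change was -0.02 (adjusted p = 0.955).

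*Cldn7*, a claudin of differentiated epithelia that binds EpCAM, had 6.81, 6.20, 5.56, and 5.33 in the controls and 13.3, 14.2, 12.2, and 11.5 in KD. Here each KD library stood above each control. The mean rose from 5.97 ± 0.664 to 12.8 ± 1.20 (SD, n = 4 each), by 1.04 ± 0.14 SE (adjusted p = 2.06e-07). The controls held 31 to 50 reads each and the KD libraries 108 to 243. *Cldn7* was higher under each scaling, from 1.04 after the length correction to 2.01 by spike-ins. As with *Cldn6*, the estimate lay close to the threshold, and 2 of the 8 fits that left out a library ended the call, without control replicate 4 (1.00 after rounding) and without KD replicate 2 (0.99). With KD replicate 2 left out, both claudins lost their call, leaving 3 members called.

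**Figure D1:**
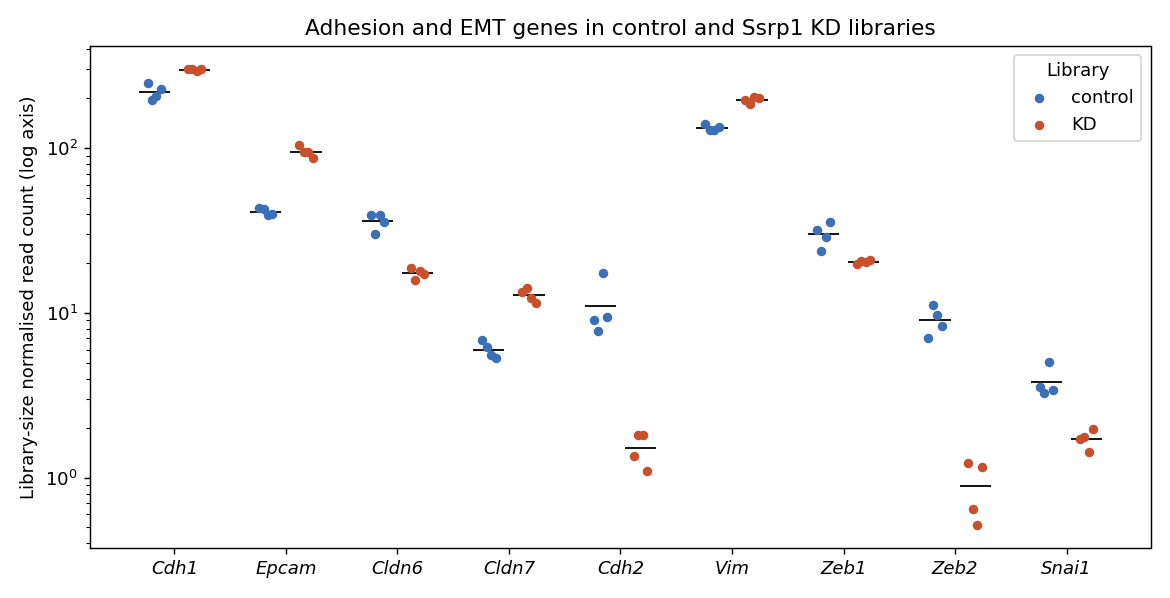
Library-size normalised read count (log axis) of the 9 genes, with a point for each control and KD library and a line at the mean of each group of 4. In none of the 9 genes did the groups overlap, and *Cdh2* and *Zeb2* dropped furthest, to means of 1.52 and 0.890.

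Of the mesenchymal genes, *Cdh2* fell and *Vim* was not called. *Cdh2* encodes N-cadherin, the cadherin of neural and mesodermal cells. Its counts were 9.12, 7.74, 17.6, and 9.44 in the controls and 1.36, 1.82, 1.81, and 1.10 in KD. Control replicate 3 was high among the controls, and the highest KD library lay far below the lowest control. The mean went from 10.97 ± 4.47 to 1.52 ± 0.354 (SD, n = 4 each), a log2 fold change of -2.45 ± 0.23 SE (adjusted p = 1.56e-10). Without control replicate 3 it was -2.21, the smallest of the leave-one-out values. The KD libraries held 11 to 31 reads of *Cdh2*. The fall was past the threshold under each scaling, with -1.56 by spike-ins, -1.54 by quantiles, and -2.0 after the length correction.

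*Vim*, encoding vimentin, had the highest level per length of the 9 genes in both groups. Its counts were 141, 128, 128, and 135 in the controls and 197, 184, 203, and 202 in KD. The KD libraries all lay above the controls, and the spread within a group was small. The means of 133 ± 5.96 and 197 ± 8.58 (SD, n = 4 each) differed by 0.56 ± 0.056 SE (adjusted p = 7.15e-10), short of the threshold. It was 1.58 by spike-ins and 0.10 by quantiles.

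The EMT transcription factors were all lower by library size, and *Zeb2* alone was called. *Zeb2* encodes a zinc finger repressor active in neural crest and neural tissue. It had 7.08, 11.2, 9.69, and 8.34 normalised read counts in the controls and 1.24, 0.645, 0.518, and 1.16 in KD. The groups did not come near each other. The mean fell from 9.07 ± 1.77 to 0.890 ± 0.361 (SD, n = 4 each), a log2 fold change of -2.80 ± 0.23 SE (adjusted p = 2.00e-11), and it was -2.0 by spike-ins, -1.94 by quantiles, and -1.96 after the length correction. With 8 to 20 reads per KD library against 52 to 65 per control, the size of the fall is less certain than its direction.

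*Zeb1*, its paralogue, had 31.9, 23.8, 29.1, and 35.4 in the controls and 19.8, 20.6, 20.3, and 20.9 in KD. The KD libraries were nearly equal and lay under the lowest control. The means of 30.0 ± 4.93 and 20.4 ± 0.491 (SD, n = 4 each) gave -0.53 ± 0.10 SE (adjusted p = 3.66e-05), short of the threshold. The sign turned with spike-in scaling, at 0.47 (adjusted p = 0.126), and the difference was 0.02 after the length correction (adjusted p = 0.849).

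*Snai1*, encoding Snail, was the scarcest factor by read count in the controls. It had 3.54, 3.27, 5.02, and 3.42 in the controls and 1.73, 1.76, 1.42, and 1.97 in KD. Control replicate 3 was again the highest. The means of 3.81 ± 0.814 and 1.72 ± 0.225 (SD, n = 4 each) gave -0.95 ± 0.23 SE (adjusted p = 0.000567), just short of the threshold. In edgeR (-1.13, adjusted p = 0.000400) and DESeq2 (-1.11, adjusted p = 0.000336) on the recovered reads it was past it. By spike-ins the groups overlapped, at 1.96 to 3.37 in controls and 1.59 to 3.26 in KD (-0.09, adjusted p = 0.812), and by quantiles the sign turned, to 0.24 (adjusted p = 0.293). These values rested on 19 to 28 reads per control library and 14 to 34 per KD library.

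**Figure D2:**
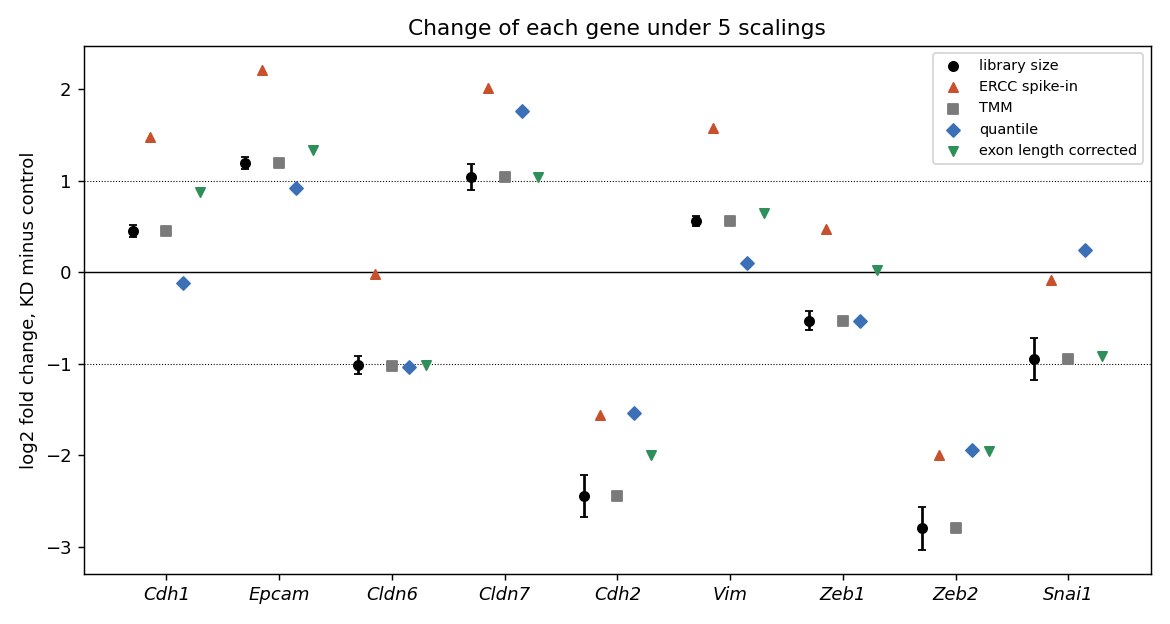
Log2 fold change, KD minus control, of each gene under 5 scalings, with the SE of the library-size fit as bars and dotted lines at the threshold of 1 in either direction. *Epcam* and *Cldn7* lie above 0 and *Cdh2* and *Zeb2* below -1 under each of them, while *Cdh1*, *Zeb1*, and *Snai1* cross 0.

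A ratio of 2 genes within a library is not changed by a single factor per library, apart from the pseudocount, but quantile normalisation and the length correction change genes unequally. Ratios of 4 pairs with related roles were compared between the groups by a two-sided exact permutation test of 4 against 4 libraries. Every pair gave an exact p = 0.0286, the smallest that this design allows, and the exact p stayed 0.0286 after Benjamini-Hochberg adjustment over the 4 pairs. Under spike-in scaling, quantile normalisation, and the length correction, and with pseudocounts of 0.1 and 2, the direction of each pair was kept and the groups did not overlap. Such separation was common, as 73.3% of single genes had it, and no share over all gene pairs was computed. The pairs join members chosen with earlier results known, so their separation adds no support to the member calls.

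The log2 ratio of E-cadherin to N-cadherin (*Cdh1*/*Cdh2*) was 4.69, 4.58, 3.52, and 4.52 in the controls and 7.34, 7.03, 6.98, and 7.56 in KD. Control replicate 3 was the lowest, and the groups stood apart. The means of 4.33 ± 0.54 and 7.23 ± 0.27 (SD, n = 4 each) differed by 2.90, a 7.48-fold shift towards *Cdh1*. The change was 1.41 (2.67-fold) by quantiles and 2.28 (4.86-fold) with a pseudocount of 2. For *Zeb1*/*Zeb2* the ratio was 2.09, 1.05, 1.54, and 2.02 in the controls and 3.55, 4.2, 4.35, and 3.69 in KD. All KD libraries were above all controls, with means of 1.68 ± 0.48 and 3.95 ± 0.39 (SD, n = 4 each) and a change of 2.27, or 4.83-fold. By quantiles it was 1.40 (2.63-fold), and with a pseudocount of 2 it was 1.43 (2.69-fold).

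The claudin ratio *Cldn6*/*Cldn7* moved the other way. It was 2.44, 2.19, 2.72, and 2.63 in the controls and 0.48, 0.15, 0.53, and 0.55 in KD, so that *Cldn6* went from far above *Cldn7* to close to it. The means of 2.5 ± 0.23 and 0.43 ± 0.19 (SD, n = 4 each) differed by -2.07, a 4.19-fold shift towards *Cldn7* (-2.80, or 6.97-fold, by quantiles). As both genes have exons of nearly the same length (1506 and 1453 bp), the ratio per length was much the same, at 2.44 and 0.38. The smallest change was in *Epcam*/*Vim*, at -1.69, -1.58, -1.69, and -1.75 in the controls and -0.92, -0.96, -1.09, and -1.21 in KD. *Vim* stayed the more abundant in every library. The means of -1.68 ± 0.07 and -1.05 ± 0.13 (SD, n = 4 each) differed by 0.63, or 1.55-fold.

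**Figure D3:**
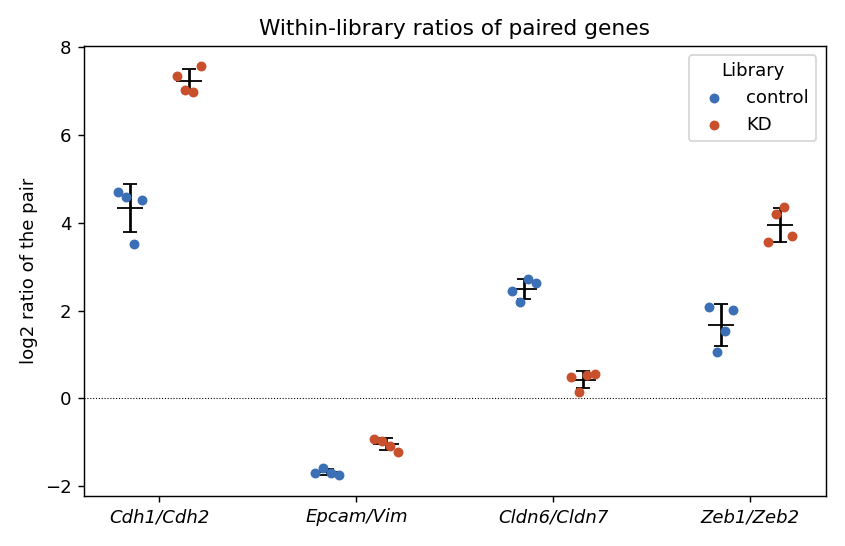
Log2 ratio of the library-size normalised read counts, each with 0.5 added, of 4 gene pairs in each control and KD library, with the mean and SD of each group of 4. The ratio of *Cdh1* to *Cdh2* rose by 2.90 and that of *Cldn6* to *Cldn7* fell by 2.07, and in no pair did the groups overlap.

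To compare genes with each other, the normalised read counts were divided by exon length in kb. In the controls *Vim* led with 72.5 ± 3.25 per kb, followed by *Cdh1* with 49.7 ± 5.15, *Cldn6* with 24.0 ± 2.87, and *Epcam* with 20.0 ± 0.993 (SD, n = 4 each). *Zeb1* (5.17 ± 0.848), *Cldn7* (4.11 ± 0.457), *Snai1* (2.4 ± 0.512), *Cdh2* (2.36 ± 0.961), and *Zeb2* (0.996 ± 0.194) followed. The libraries of *Cldn6* and *Epcam*, of *Zeb1* and *Cldn7*, and of *Snai1* and *Cdh2* overlapped, so these neighbours did not differ beyond their spread. *Vim* and *Cdh1* lay above 94.7% and 91.9% of all genes, and *Zeb2* above 0.377%.

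In KD the order was *Vim* (107 ± 4.68 per kb), *Cdh1* (67.8 ± 1.17), *Epcam* (46.1 ± 3.35), *Cldn6* (11.6 ± 0.833), *Cldn7* (8.84 ± 0.823), *Zeb1* (3.51 ± 0.0846), *Snai1* (1.08 ± 0.142), *Cdh2* (0.328 ± 0.0761), and *Zeb2* (0.0976 ± 0.0396; SD, n = 4 each). No neighbours overlapped. *Epcam* had passed *Cldn6*, and *Cldn7* had passed *Zeb1*. *Epcam* moved from above 76.2% of all genes to above 85.9%, and *Cldn7* from above 28.6% to above 52.2%. *Cldn6* went from 80.3% to 58.3%, *Zeb1* from 36.1% to 33.2%, *Cdh2* from 10.5% to 2.52%, and *Zeb2* from 0.377% to 0.0975%. Level and standing did not always move together. *Vim* (94.7% to 94.2%) and *Cdh1* (91.9% to 90.8%) stood slightly lower at a higher level, and *Snai1* (10.9% to 14.7%) higher at a lower level.

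Chromatin RNA, the RNA that stays with chromatin after cell fractionation, was counted in 2 libraries of 3441643 and 3393923 counts. Protein-coding genes took 5.56% and 9.35% of them. *Cdh1* had 69 and 101 counts, or 24.9 ± 6.87 CPM, the count relative to the library total (SD, n = 2). *Vim* had 21 and 36 counts (8.35 ± 3.19 CPM) and *Epcam* 15 and 28 (6.30 ± 2.75 CPM). These 3 genes were the only members with at least 10 counts in both libraries. *Zeb1* had 4 and 16 counts, *Cldn7* 2 and 6, *Cldn6* 0 and 9, *Zeb2* 0 and 3, *Snai1* 0 and 1, and *Cdh2* 1 and 0. A count of 0 allows up to 3 counts, or 0.872 and 0.884 CPM, so *Zeb2*, *Snai1*, and *Cdh2* were not detectable above that limit. Library 2 gave more CPM than library 1 for every member but *Cdh2*, and it also had the larger share of protein-coding counts.

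Per kb of exon, *Cdh1* led the chromatin RNA with 5.64 CPM, ahead of *Vim* with 4.56 and *Epcam* with 3.06. *Cdh1* ranked 988th of the 27179 genes, *Vim* 1306th, and *Epcam* 2164th. In total RNA of the control libraries the order of the first pair was the reverse, with *Vim* above *Cdh1*. *Cdh1* was above *Vim* in both chromatin libraries, at 4.54 against 3.33 CPM per kb in library 1 and 6.74 against 5.78 in library 2. Library preparation differed between the sets and there were 2 chromatin libraries, so no test was made. Of *Cldn6* and *Cldn7*, 0.880 and 0.808 CPM per kb were found.

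The peak lists were searched for FACT at these genes. An SSRP1 peak was assigned to 4 of the 9 members, *Cdh1*, *Epcam*, *Snai1*, and *Cldn7*, where 36.0% of the 15384 genes had one. A SUPT16 peak was assigned to 3, *Cdh1*, *Snai1*, and *Cldn7*, where 18.6% had one. *Vim*, *Zeb1*, *Zeb2*, *Cdh2*, and *Cldn6* had none of either. Peaks were called on the replicates together, so no spread can be given, and peak heights were not analysed here.

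*Cdh1* (chr8:106603350-106670247, plus strand) carried 9 SSRP1 peaks that together covered 8918 bp. The first, chr8:106603323-106603910, covered the gene start and reached through the first coding exon into the intron. The longest, of 4410 bp at chr8:106614299-106618708, lay in an intron and began 10949 bp past the start. The median SSRP1 peak of the whole list was 392 bp long. Of the 2 SUPT16 peaks, that at chr8:106616511-106616930 lay within the longest SSRP1 peak, and that at chr8:106602651-106602860 ended 490 bp before the start. The other SSRP1 peaks were all intronic, and the last began 30157 bp past the start.

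*Epcam* (chr17:87635979-87651127, plus strand) had 2 SSRP1 peaks, both of 294 bp, the shortest length in the list. The peak chr17:87635717-87636010 covered the start and, with it, both E-boxes of the window printed above. The second, chr17:87636599-87636892, lay in the exon that begins the coding sequence. *Snai1* (chr2:167538195-167542814, plus strand) had an SSRP1 peak over its start, chr2:167537665-167538252, which also spanned its E-box. Another of 1078 bp, chr2:167530119-167531196, ended 6999 bp before the start. Its SUPT16 peak, chr2:167541431-167541640, was intronic and overlapped no SSRP1 peak. *Cldn7* (chr11:69964779-69967886, plus strand) had an SSRP1 peak of 294 bp, chr11:69966807-69967100, and a SUPT16 peak of 840 bp, chr11:69966891-69967730. The peaks overlapped across coding exon and intron, 2028 bp and 2112 bp past the upstream start.

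**Figure D4:**
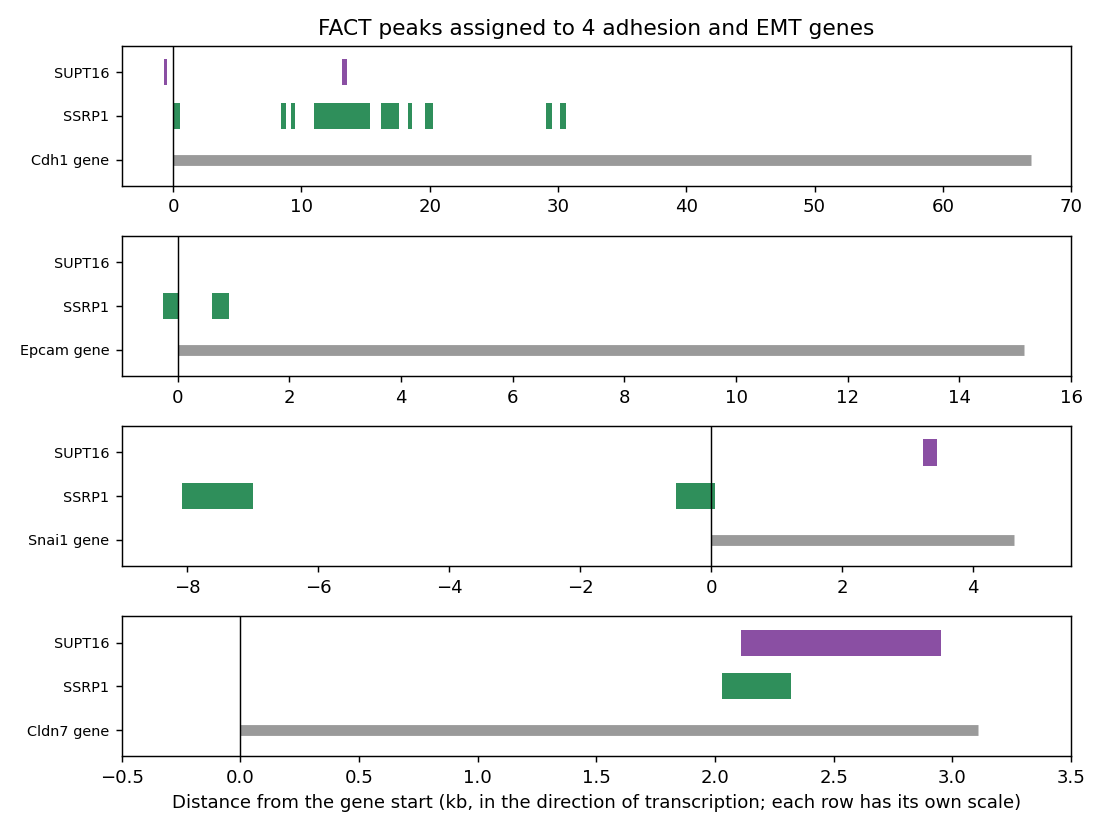
Position of the SSRP1 and SUPT16 peaks assigned to *Cdh1*, *Epcam*, *Snai1*, and *Cldn7*, as the distance from the gene start in kb in the direction of transcription, with a separate scale for each gene. SSRP1 peaks cover the start of *Cdh1*, *Epcam*, and *Snai1*, and the 9 peaks of *Cdh1* reach about 30 kb into the gene.

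Of the 4 members with an SSRP1 peak, *Epcam* and *Cldn7* were called higher and *Cdh1* and *Snai1* were not called. Among the 5 without one, *Cdh2*, *Zeb2*, and *Cldn6* were called lower and *Vim* and *Zeb1* were not called. The peaks are from E14 cells without a knock-down. Over all genes, 8.07% were called higher and 20.6% lower. These shares were not computed apart for genes with and without a peak, so the split is a description only. With 9 genes chosen by name, no test of this arrangement was made.

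The other genes of adhesion and EMT were grouped in 8 lists of 166 genes in all, of which 138 had a value. Of these, 3 were called higher and 49 lower (37.7% called, against 28.6% of all genes), with a median log2 fold change of -0.51 against -0.03 for all genes. Relative to the median of all genes this was -0.47 by library size, -0.46 by spike-ins, and -0.49 by quantiles. After the length correction it was smaller, at -0.30, with 9 called higher and 32 lower. In absolute terms the direction depended on scaling, since by spike-ins 44 of the 138 were called higher and 21 lower. Over all genes, 55.1% were called by spike-ins, 48.1% higher and 7.03% lower, and by library size 8.07% were higher and 20.6% lower. The counts of each list below are to be read against the shares of the same scaling. The authors left out genes of low count, so genes scarce in 1 group may be present only through the group where they are higher. How far this shapes the counts of each list was not tested.

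The adherens junction and catenin genes were called about as often as all genes (26.3% against 28.6%). Of 19 with a value 0 rose and 5 fell, with a median of 0.05, and by spike-ins 11 were called higher and 2 lower. *Ctnnd2* (δ-catenin of neural cells) fell from 18.5 ± 2.58 to 3.58 ± 0.413 normalised read counts (SD, n = 4 each; log2 fold change -2.21). *Pvrl4*, now named *Nectin4*, a nectin of epithelia, fell from 49.3 ± 2.74 to 11.4 ± 1.21 (-2.07). The most abundant gene not called was *Ctnnb1*, encoding β-catenin, which links cadherins to the cytoskeleton and carries Wnt signals, with 851 ± 71.3 and 1109 ± 9.34 (0.39). It was 1.41 by spike-ins and -0.50 by quantiles.

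The other cadherins had the lowest median, -1.87, and of 12 with a value 0 rose and 10 fell. Of the 23 listed, the rest had no value, so the counts and the median describe only genes that passed the filter. *Cdh4* and *Cdh5*, named below, were so low in KD that they may have passed through their control values alone. By spike-ins 7 fell and 0 rose. *Cdh4* (R-cadherin) went from 13.96 ± 3.29 to 1.31 ± 0.219 (-2.98) and *Cdh5* (VE-cadherin of endothelium) from 9.59 ± 3.93 to 0.866 ± 0.415 (-2.84). P-cadherin, *Cdh3*, was the most abundant of those not called, with 52.3 ± 4.59 and 34.0 ± 2.57 (-0.62), and it was 0.40 by spike-ins.

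Tight junction genes had a median of -0.07, and of 27 with a value 1 rose and 4 fell (18.5% called). By spike-ins 13 were called higher and 0 lower, close to the 48.1% of all genes that were higher on that scale. The rise was *Cldn3*, a further claudin of epithelia, from 2.495 ± 0.957 to 5.52 ± 0.985 (1.05). *Marveld3*, a tight junction membrane protein, fell from 6.497 ± 1.32 to 1.80 ± 0.179 (-1.59). *Amotl2*, an angiomotin that binds cell junctions and YAP, fell from 389.7 ± 50.3 to 159 ± 8.20 (-1.28). *Cldn4* was the most abundant of those not called, with 122 ± 24.4 and 84.6 ± 3.28 (-0.51 by library size and 0.51 by spike-ins). Of the desmosome genes, 4 of 7 fell and 0 rose. These were led by *Dsp* (desmoplakin), from 143 ± 20.6 to 44.5 ± 2.86 (-1.67), and *Evpl* (envoplakin), from 34.3 ± 4.55 to 11.9 ± 2.34 (-1.5). By spike-ins 0 of them fell, and none fell after the length correction either. *Pkp2* (plakophilin) was not called, with 113 ± 12.4 and 91.8 ± 6.42 (-0.30).

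Among epithelial regulators and EMT repressors 1 of 22 rose and 5 fell (27.3% called, near the 28.6% of all genes). By spike-ins 8 were higher and 2 lower. *Spint2*, an inhibitor of membrane serine proteases such as matriptase, rose from 33.2 ± 3.16 to 88.1 ± 3.49 (1.40) and, like *Epcam*, was higher under each scaling. *Cd44*, the hyaluronan receptor whose isoforms change in EMT, fell from 12.5 ± 1.84 to 1.62 ± 0.209 (-2.61). *Cd9*, a tetraspanin, was not called, with 119.9 ± 9.82 and 176 ± 12.3 (0.55). Of 13 other EMT transcription factors with a value 0 rose and 3 fell (23.1% called). By spike-ins 3 were higher and 0 lower. *Msx2*, a homeobox gene, fell from 9.97 ± 1.76 to 3.02 ± 0.455 (-1.57), and *Snai3*, of the Snail family, from 9.68 ± 0.926 to 3.91 ± 1.23 (-1.25). *Id1*, an inhibitor of basic helix-loop-helix factors, was not called, with 60.2 ± 4.36 and 102 ± 1.52 (0.76).

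Of 23 mesenchymal and matrix genes with a value 1 rose and 11 fell, with 4 higher and 7 lower by spike-ins. *Tnc* (tenascin C) fell from 16.1 ± 4.58 to 1.56 ± 0.307 (-2.99) and *Fbn1* (fibrillin 1) from 41.4 ± 4.52 to 5.76 ± 1.55 (-2.77). *Loxl2*, a lysyl oxidase of the matrix, rose from 20.0 ± 1.43 to 45.2 ± 5.27 (1.15). *Sparc*, a secreted matrix protein, was not called, with 145 ± 15.9 and 175 ± 7.82 (0.27). TGF-beta signalling is a main inducer of EMT, and of 15 such genes 0 rose and 7 fell, with 4 higher and 3 lower by spike-ins. The falls included the ligand *Tgfb2*, from 11.2 ± 3.45 to 0.978 ± 0.316 (-2.95), and the receptor *Tgfbr2*, from 14.3 ± 0.887 to 2.41 ± 0.653 (-2.38). Its shared signal transducer *Smad4* was not called, with 87.2 ± 9.16 and 70.5 ± 5.02 (-0.30).

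**Figure D5:**
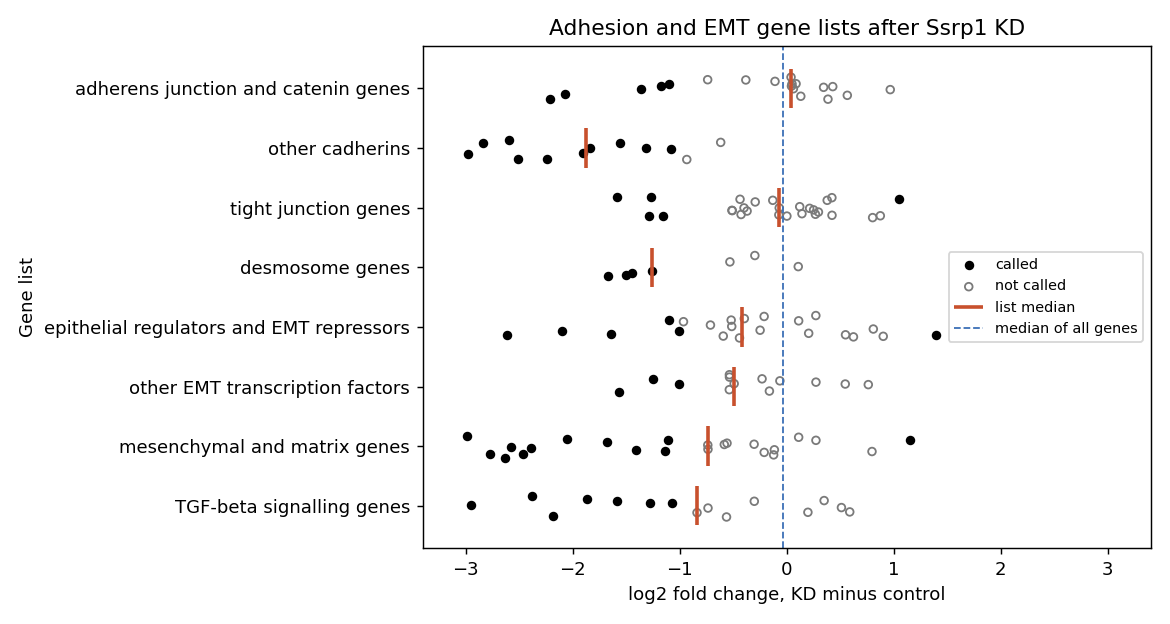
Log2 fold change, KD minus control, of each gene with a value in the 8 lists, with called genes filled, the median of each list as a bar, and the median of all genes (-0.03) dashed. The other cadherins have the lowest median, -1.87, and the adherens junction and catenin genes lie around that of all genes, with a median of 0.05.

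To see which genes had the pattern most like that of each member, Pearson's correlation of log2 values over the 8 libraries was ranked over all genes. As the libraries form 2 groups, many genes scored high, and these values are a description. The closest were *Kdm1a* (r = 0.996) for *Cdh1*, *Zfp266* and *Paics* (both 0.999) for *Epcam*, *Btbd18* (0.997) for *Cldn6*, and *Haus8* (0.995) for *Cldn7*. For *Vim* it was *Evi5* (0.998), for *Cdh2* *Ccdc96* (0.996), and for *Zeb2* *Phactr2* (0.999). *Snai1* was nearest to *Gm10866* (0.995), and *Zeb1* to *Arl14ep* (0.988). The second nearest were *Mgea5* for *Cdh1*, *Trip11* for *Cldn6*, *9130401M01Rik* for *Cldn7*, *Zfos1* for *Vim*, *Tmem8b* for *Cdh2*, *Scn2b* for *Snai1*, and *Zmynd11* for *Zeb1*. An unnamed gene was second for *Zeb2*. *Zeb1* had the fewest genes at r of at least 0.95, with 79, while *Epcam* had 3187. No member was among the closest pair of another.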

How the data were processed

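The authors used STAR (mm10) and featureCounts, left out genes of low count, and deposited a signal per gene and library, scaled to library size or to ERCC spike-ins. The step between low values gave the reads behind each of them, and 100% came out whole within 0.1. Chromatin RNA is deposited as raw counts, aligned with STAR per the labels. The authors called peaks with PePr and assigned them to the nearest gene with ChIP-Enrich. Deposited tables of the authors' own comparisons (fold changes and p-values for KD, for neural progenitors, and for exons) were not used.

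Library-size values, as log2(value + 0.5), were fitted by limma 3.58.1 with a variance trend, and p was adjusted over all 15384 genes (Benjamini-Hochberg). The call rule, a log2 fold change beyond 1 with adjusted p below 0.01, follows the study's methods. The fit was tested on simulated data first. Alternatives were pseudocounts of 0.1 and 2, values of at least 5 in 4 libraries, spike-in, TMM, and quantile scaling, no trend, count models on those reads in edgeR 4.0.16 and DESeq2 1.42.0, a loess correction for exon length, a replicate block, the adjusted p alone, and each library left out. Members and lists were chosen with earlier results of these data known. Named were the members, *Ssrp1* and *Supt16*, the 2 largest rises and falls of each list among called genes whose groups do not overlap, its most abundant gene per length not called, and the 2 genes most correlated with each member. A gene that this rule names is not reported here. Promoters and gene models are RefSeq's (GRCm38.p6). All replicates are biological per the methods, and no library duplicated another. Depth was 4602278 to 19856032 reads, and intervals and limits from counts cover counting error only. Python 3.11.15 and R 4.3.3 were used.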

Additional observations from a re-analysis of the deposited data

Results flagged for a closer look

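Among 26 groups of 4 libraries tested for a value far from the others (9 genes and 4 ratios, in control and KD), 3 had one, where chance flags about 1 in 20. The gap to the nearest library as a share of the range was 0.846 for *Snai1* in the controls, where replicate 3 stood at 5.02 and the rest at 3.27 to 3.54. It was 0.855 for the *Cdh1*/*Cdh2* ratio in the controls, where replicate 3 had 3.52 and the rest 4.52 to 4.69, which comes from its *Cdh2* value of 17.6. For *Cdh1* in KD it was 0.843, with replicate 3 at 292 and the others at 301 to 303, a small distance set against a small range. Without control replicate 3 the *Cdh1*/*Cdh2* change was 2.63 in place of 2.90.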

How the results depend on the processing

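Of 170 refitted log2 fold changes of the 9 members (19 alternatives), 151 kept direction and side of the threshold, 9 lost the call, 6 gained it, and 4 turned sign: *Cdh1* (-0.12) and *Snai1* (0.24) by quantiles, *Zeb1* by spike-ins (0.47) and after the length correction (0.02). The 5 member calls became 3 with a pseudocount of 2 and 9 by adjusted p alone, and leaving out a library gave 3 to 6. The 4405 calls over all genes became 8476 by spike-ins and 11192 by adjusted p alone, and 4254 to 4635 without a library. The split over all genes was 1242 higher and 3163 lower by library size, 7394 and 1082 by spike-ins, 1518 and 1656 by quantiles, and 1850 and 2512 after the length correction. Of the 52 pathway genes called, adjusted p alone gave 106, and leaving out a library 50 to 52. No run without a filter on low values was made, as the main fit used every deposited gene.

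SSRP1 peaks were assigned to 4 members, to 2 when only peaks of at least 500 bp were kept and to 2 when a SUPT16 peak had to overlap. For SUPT16 the 3 members became 1 with peaks of at least 500 bp. Chromatin counts in both libraries were found for 5 members, and at least 10 counts in both for 3. With library 2 left out, 6 members had counts in library 1, and with library 1 left out, 8 had counts in library 2.

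The same numbers in control and KD do not pair the libraries. Deviations correlated at -0.057 to 0.0175, and 0 of 4 libraries correlated best with its own number. With a replicate block the counts were 4405 genes, 5 members, and 52 pathway genes. As paired differences the ratios were 2.90, 0.63, -2.07, and 2.27 with p = 0.125 each (exact sign-flip test), the smallest that 4 pairs allow. The ratios without a library were 2.63 to 3.03 for *Cdh1*/*Cdh2*, 0.59 to 0.69 for *Epcam*/*Vim*, -2.17 to -1.97 for *Cldn6*/*Cldn7*, and 2.06 to 2.41 for *Zeb1*/*Zeb2*. Their values by quantiles, spike-ins, and length correction were added after seeing the data. Depth limits *Zeb2*, *Cdh2*, and *Snai1* in KD, at 8 to 34 reads per library.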
